A study of Mus musculus with 6 samples.

Results

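The junctions of the blood-testis barrier were examined through 9 genes that encode their best-known proteins: the claudins Cldn3, Cldn5 and Cldn11, occludin (Ocln), the junctional adhesion molecules F11r and Jam3, the scaffold protein ZO-1 (Tjp1), N-cadherin (Cdh2) and connexin 43 (Gja1). The members were chosen by gene symbol, and all 9 were found among the 24411 genes of the files. The study compared testes from C57BL/6 mice, an inbred laboratory strain, carrying the genotype MRP5-/- and MRP9-/- (labelled DKO, 3 libraries) with age-matched Wildtype testes (labelled WT, 3 libraries). MRP5 and MRP9 are ABCC-family membrane transporters encoded by Abcc5 and Abcc12, and the series asks about their part in male reproduction and mitochondrial function. The labels state neither the ages nor how the alleles were made, and both groups are whole tissue. In whole tissue, fewer cells of a type and less RNA per cell cannot be told apart. That each library is a separate animal rests on the labels.

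The blood-testis barrier is built between neighbouring Sertoli cells, the somatic cells that enclose and feed the germ cells, near the base of the seminiferous tubule. Its tight junctions are strands of claudins and occludin, held to the actin cytoskeleton by ZO scaffold proteins, and they lie side by side with cadherin-based adherens junctions, gap junctions and desmosomes. Preleptotene spermatocytes pass through the barrier as they move away from the basement membrane, so the junctions are taken apart above them and rebuilt below. Claudin 11 is required for the barrier and for male fertility in mice, and connexin 43 in Sertoli cells is required for spermatogenesis.

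Cldn11 transcript fell and Tjp1 transcript rose in the libraries labelled DKO, by about the same small amount in opposite directions, and no other member passed the test. Cldn11 was at 81.4% and Tjp1 at 124% of the WT level. Cldn3 had almost the same fold change as Cldn11 (81.1% of WT) but a wider spread, and its groups overlapped. The difference in Jam3 and in Gja1 was close to 0, with 95% intervals from -0.15 to 0.18 and from -0.16 to 0.16 on the log2 scale. Of the 9 members, 2 were called at an adjusted p under 0.05 (edgeR quasi-likelihood test, Benjamini-Hochberg adjustment over all 17110 tested genes), 1 higher and 1 lower. Of all tested genes 10.8% were called, 5.75% higher and 5.10% lower, and a count of 2 among 9 is too small to be set apart from these shares. The groups did not overlap for the same 2 members, against 35.9% of all tested genes, and 4 of 9 members had an unadjusted p under 0.05, against 31.7%. The split of all calls was not stable: 53.0% were higher in this fit, and 38.0% and 39.1% on the scales log2(TPM + 1) and log2(TPM + 0.1). It also moved with 1 library left out, to 26.0% without DKO replicate 2, 62.8% without DKO replicate 3 and 48.4% without WT replicate 1. The share was 0% without DKO replicate 1, WT replicate 2 or WT replicate 3, where 11, 13 and 7 genes were called. The median log2 fold change of the members was 0.0010, and that of all tested genes was -0.0042.

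**Figure D1:**
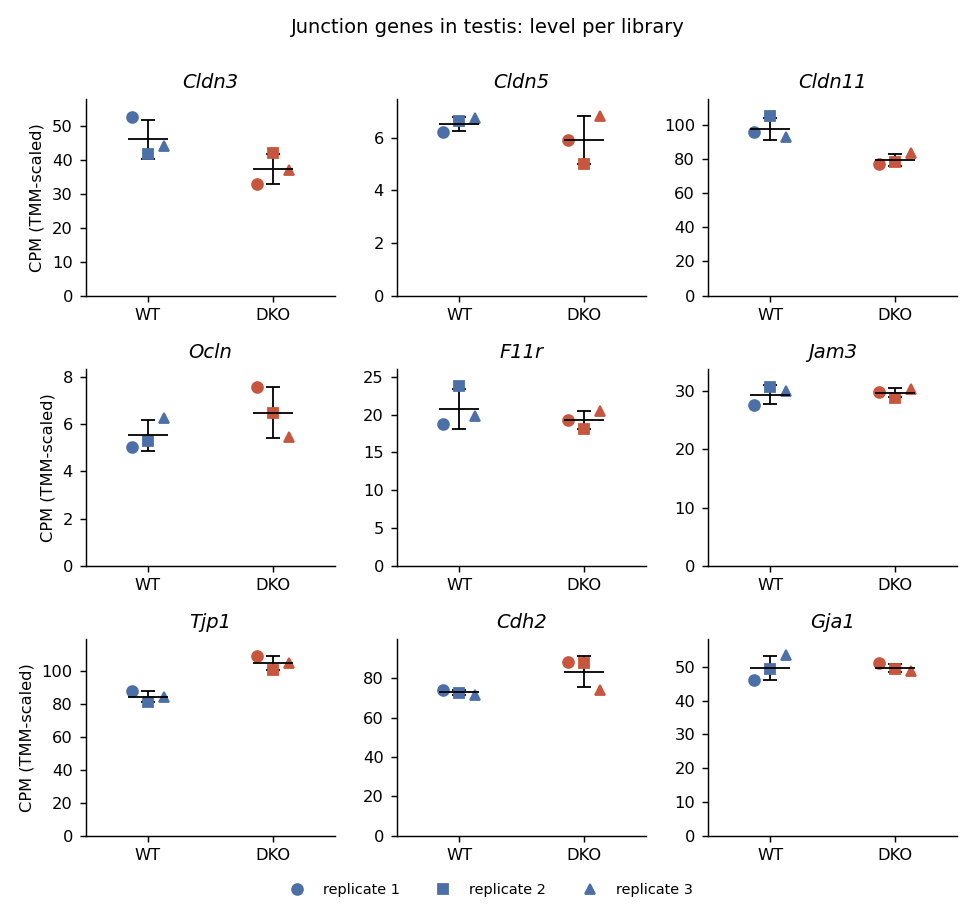
TMM-scaled CPM (y axis, from 0) of each of the 9 junction genes in the 3 WT and 3 DKO libraries (x axis). Symbols are single libraries, the wide dash is the group mean and the bars are 1 SD. The groups are apart for Cldn11 (76.9 to 83.4 CPM in DKO, 92.5 to 105 in WT) and for Tjp1 (101 to 109 in DKO, 81.7 to 88.0 in WT), and they overlap for the other 7 genes.

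The targeted genes were read first as a check of the labels. Abcc12 had 82.1, 82.4 and 72.6 CPM (TMM-scaled counts per 1e6) in the libraries labelled DKO and 165, 158 and 158 CPM in those labelled WT. Abcc5 had 17.03, 16.66 and 16.82 CPM against 10.5, 12.3 and 11.4 CPM. Abcc12 was called lower (edgeR adjusted p = 0.000307), and its adjusted p was at most 0.0168 over 17 alternative fits. Abcc5 thus was higher, not lower, in the libraries labelled DKO, so groups are named by their labels and every direction below rests on them. The rise of Abcc5 (edgeR adjusted p = 0.0225) did not pass on the scales log2(TPM + 1) and log2(TPM + 0.1) (limma adjusted p = 0.107 and 0.105). It also did not pass with fragment length as covariate, or without DKO replicate 1, WT replicate 2 or WT replicate 3. Total expected counts, in units of 1e6, were 42.7 to 67.1 in DKO and 26.8 to 31.7 in WT libraries. The mean fragment length was 275.5 to 317.4 bases in DKO and 230.4 to 257.9 bases in WT libraries. For both quantities all DKO libraries exceeded all WT libraries, which gives p = 0.1 in a two-sided exact permutation test, the lower bound for 3 against 3. The lowest count of any member in any library was 133, for Ocln; Ocln and Cldn5 had the fewest counts and the largest SEs of the 9 members (0.144 and 0.129 on the log2 scale).

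The upstream sequences of 3 members are shown because these genes had the largest differences, Cldn11 and Cldn3 downward and Tjp1 upward. Each is the 250 bases before the RefSeq transcription start on GRCm38.p6, the assembly also called mm10, 5′ to 3′ on the gene's own strand. The windows are chr3:31149670-31149919 (+ strand) for Cldn11, chr5:134985964-134986213 (+ strand) for Cldn3 and chr7:65371245-65371494 (- strand) for Tjp1. The Tjp1 window precedes an internal start, which lies inside the longer span given for the gene below; sequence before the outermost start was not used here. Capitals mark a GC box (letters GGGCGG) or a CCAAT box (letters CCAAT), each read on either strand, so that a match on the other strand appears as its reverse complement.
Cldn11: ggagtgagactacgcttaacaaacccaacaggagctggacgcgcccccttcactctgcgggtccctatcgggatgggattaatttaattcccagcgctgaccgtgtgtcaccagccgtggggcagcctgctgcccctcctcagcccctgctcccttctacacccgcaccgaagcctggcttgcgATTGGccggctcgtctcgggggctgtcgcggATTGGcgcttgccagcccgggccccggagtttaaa
Cldn3: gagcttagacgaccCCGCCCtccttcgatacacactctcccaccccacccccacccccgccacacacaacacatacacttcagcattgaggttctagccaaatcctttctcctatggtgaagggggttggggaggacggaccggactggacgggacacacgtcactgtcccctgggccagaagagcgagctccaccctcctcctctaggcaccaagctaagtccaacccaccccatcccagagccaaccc
Tjp1: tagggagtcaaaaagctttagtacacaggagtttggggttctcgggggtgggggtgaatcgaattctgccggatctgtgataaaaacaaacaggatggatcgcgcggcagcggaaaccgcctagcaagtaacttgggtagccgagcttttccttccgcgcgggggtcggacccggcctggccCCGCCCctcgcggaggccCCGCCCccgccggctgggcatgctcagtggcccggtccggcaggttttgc

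The Cldn11 window held 2 CCAAT boxes, both on the reverse strand, and no GC box. The Tjp1 window held 2 GC boxes and no CCAAT box, and the Cldn3 window 1 GC box. Over the 32817 RefSeq windows of the same length, 32.7% held a GC box and 33.8% a CCAAT box on either strand. The windows held 19 (Cldn11), 9 (Cldn3) and 22 (Tjp1) CpG dinucleotides, where the median over all windows was 6. Other motifs were searched on both strands: the androgen receptor half-site AGAACA was in 16.1% of all windows, the SOX motif AACAAT in 9.42%, the GATA motif AGATAA in 9.99%, the E-box CACGTG in 6.02%, the cAMP response element TGACGTCA in 1.55% and the TATA box TATAAA in 12.4%. The Cldn11, Cldn3 and Tjp1 windows held none of these, and no matches in them overlapped. In these letters the 2 genes that passed the test share no motif. RefSeq windows were matched by symbol for 7 of the 9 members, all but Jam3 and Cdh2.

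Among the tight junction strand proteins, claudin 11 forms the parallel strands of Sertoli cells. Cldn11 lies on chromosome 3 (31149920 to 31164326, + strand, GRCm38.p6) and has 3 exons. It had 76.9, 78.3 and 83.4 CPM in DKO replicates 1 to 3, against 95.8, 105 and 92.5 CPM in WT replicates 1 to 3. All 3 DKO libraries were below all 3 WT libraries, and within each group the spread was small (79.5 ± 3.39 against 97.7 ± 6.44 CPM, SD, n = 3 each). The log2 fold change was -0.30 (SE 0.0739, 95% interval -0.46 to -0.14; edgeR adjusted p = 0.0358). Over all tested genes, 17.5% were lower in DKO with no overlap between the groups. The direction of Cldn11 was the same in every fit run, and its call ended when DKO replicate 1, DKO replicate 2, WT replicate 2 or WT replicate 3 was left out (edgeR adjusted p = 0.128, 0.0801, 0.130 and 0.101). Over all 17 alternatives the adjusted p ran from 0.00663 to 0.999.

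Claudin 3 is placed in newly formed Sertoli cell junctions and is regulated by androgen. Cldn3 is a gene of 1 exon on chromosome 5 (134986214 to 134987476, + strand). It had 33.1, 42.1 and 37.2 CPM in DKO and 52.7, 41.8 and 44.1 CPM in WT libraries. DKO replicate 2 lay just above WT replicate 2, so the groups overlapped. The log2 fold change was -0.30 (SE 0.107, 95% interval -0.54 to -0.067; edgeR adjusted p = 0.0823), as large as that of Cldn11 and short of the threshold. With DESeq2 it passed (adjusted p = 0.0393), and its adjusted p over all 17 alternatives ran from 0.0393 to 0.999.

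At the 3′ end of Cldn3, 40 bases of its exon in the GENCODE annotation overlap Wbscr25, an antisense noncoding gene on the opposite strand. That exon has 1259 bases in GENCODE, and the gene spans 1263 bases in RefSeq, so RefSeq positions give a slightly different overlap. Wbscr25 lies on chromosome 5 (134987433 to 135001350 in RefSeq) and was named for this overlap after its values were seen. Wbscr25 had 325, 382 and 288 CPM in DKO and 451, 339 and 412 CPM in WT libraries. In WT both genes were highest in replicate 1 and lowest in replicate 2, and in DKO both were highest in replicate 2, but Cldn3 was lowest in replicate 1 and Wbscr25 in replicate 3. The log2 fold change of Wbscr25 was -0.27 (SE 0.119; edgeR adjusted p = 0.141), close to that of Cldn3. Strand handling is not given in the sources used here, so fragments that lie wholly within the shared 40 bases cannot be told apart. Mean fragment lengths were far longer, at 275.5 to 317.4 bases in DKO and 230.4 to 257.9 bases in WT libraries. The counts of Cldn3 were whole numbers in all 6 libraries, as were those of Wbscr25 and 93.2% of all expected counts. The part of the overlap in the Cldn3 value was not tested.

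Claudin 5 is best known from endothelial tight junctions. Cldn5 (chromosome 16, 18776847 to 18778262, + strand, 1 exon) lies 1.55 Mb from the targeted gene Abcc5. It had 5.910, 4.999 and 6.824 CPM in DKO and 6.22, 6.63 and 6.75 CPM in WT libraries. DKO replicate 3 was the highest of all 6 libraries and DKO replicate 2 the lowest, so the DKO range enclosed the WT range (difference -0.14 on the log2 scale, SE 0.129; edgeR adjusted p = 0.488). Markers of endothelial cells were also measured: 0 of 12 were called by edgeR (2 at an unadjusted p under 0.05, against 31.7% of all tested genes), with a median log2 fold change of -0.17, a summed level of 54.6 to 60.9 CPM in DKO and 62.9 to 67.1 CPM in WT libraries, and no marker at 0 in all libraries. Their mean log2 CPM overlapped between the groups, at 1.63 to 1.83 in DKO and 1.77 to 1.96 in WT libraries. The part of endothelial content in the Cldn5 value was not tested.

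Occludin is a membrane protein of the strands that tunes them rather than forming them. Ocln (chromosome 13, 100496504 to 100552718, - strand) had 7.59, 6.48 and 5.45 CPM in DKO and 5.05, 5.28 and 6.27 CPM in WT libraries. DKO replicates 1 and 2 exceeded every WT library, while DKO replicate 3 lay among them (difference 0.22 on the log2 scale, SE 0.144; edgeR adjusted p = 0.306). The files count Ocln on 1 transcript, where the RefSeq table of GRCm38.p6 lists 5 curated transcripts.

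The junctional adhesion molecules are immunoglobulin-like proteins of the tight junction that also occur on germ cells. F11r (JAM-A; chromosome 1, 171437561 to 171464593, + strand) had 19.3, 18.2 and 20.5 CPM in DKO and 18.8, 23.8 and 19.8 CPM in WT libraries. The DKO libraries lay within or below the WT range (log2 fold change -0.11, SE 0.102; edgeR adjusted p = 0.502). Jam3 (JAM-C, which spermatids need to polarize; chromosome 9, 27097384 to 27155421, - strand) had 29.9, 28.9 and 30.4 CPM in DKO and 27.5, 30.7 and 30.1 CPM in WT libraries. All 3 DKO values fell inside the WT range, and the log2 fold change was 0.013 (SE 0.0759; edgeR adjusted p = 0.926). A GENCODE gene that overlaps an exon of Jam3 was not analysed here.

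ZO-1 is the scaffold that ties claudins, occludin and junctional adhesion molecules to actin, and it also binds connexin 43. Tjp1 lies on chromosome 7 (65296165 to 65527850, - strand) and has 27 or 28 exons in the 2 transcripts that the files count. It had 109, 101 and 105 CPM in DKO replicates 1 to 3, against 88.0, 81.7 and 84.5 CPM in WT replicates 1 to 3. All DKO libraries were above all WT libraries (105 ± 4.40 against 84.7 ± 3.18 CPM, SD, n = 3 each), as for 18.4% of all tested genes. The log2 fold change was 0.31 (SE 0.0689, 95% interval 0.16 to 0.46; edgeR adjusted p = 0.0296). The call ended without DKO replicate 1, WT replicate 2 or WT replicate 3 (edgeR adjusted p = 0.111, 0.117 and 0.106), and over all 17 alternatives the adjusted p ran from 0.00294 to 0.999. The abundance-weighted length of Tjp1, which moves with the mix of its 2 transcripts, was 6888 to 6892 bases in DKO and 6882 to 6899 bases in WT libraries, with the DKO values inside the WT range.

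At the adherens junction, N-cadherin links Sertoli cells to one another and to germ cells. Cdh2 (chromosome 18, 16588877 to 16809246, - strand) had 88.3, 87.8 and 74.1 CPM in DKO and 74.3, 72.5 and 71.5 CPM in WT libraries. DKO replicates 1 and 2 stood above the narrow WT range and DKO replicate 3 within it. The log2 fold change was 0.20 (SE 0.0807, 95% interval 0.019 to 0.37; edgeR adjusted p = 0.120), and without DKO replicate 3 it was 0.28 (adjusted p = 0.0270, the lowest over its 17 alternatives, where the highest was 0.9996). Connexin 43 forms gap junction channels between Sertoli cells and between Sertoli and germ cells, and is also made by Leydig cells. Gja1 (chromosome 10, 56377300 to 56390419, + strand) had 51.2, 49.3 and 48.9 CPM in DKO and 46.3, 49.4 and 53.6 CPM in WT libraries. All 3 DKO values lay inside the WT range (log2 fold change 0.0010, SE 0.0747; edgeR adjusted p = 0.995).

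**Figure D2:**
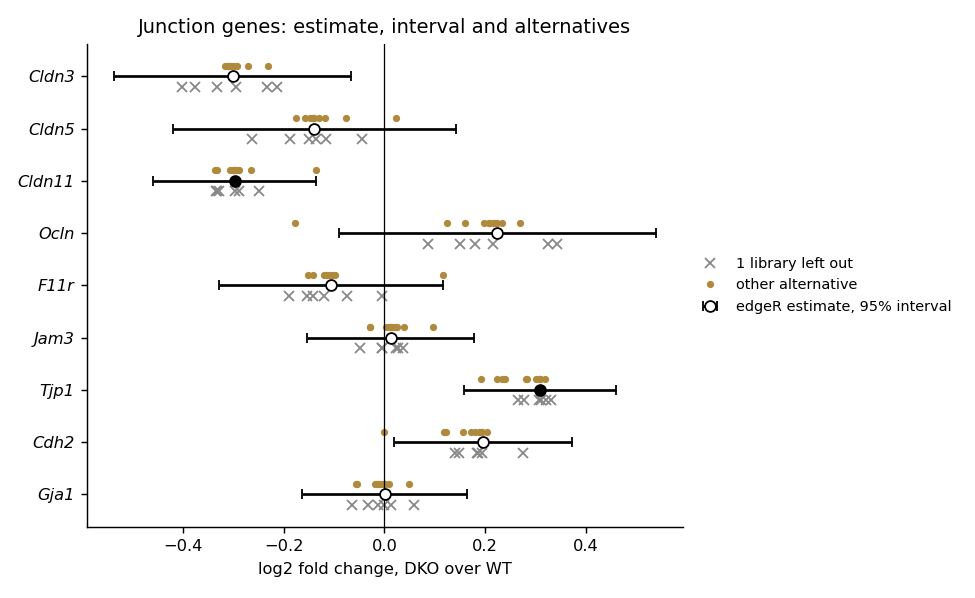
Log2 fold change of each junction gene, DKO over WT (x axis), with the edgeR estimate and its 95% interval (circles, filled where adjusted p was under 0.05), the 6 fits that left out 1 library (crosses) and the other 11 alternatives (dots). Every cross and dot of Cldn11, Cldn3 and Tjp1 lies on the same side of 0 as its estimate, while those of Gja1 and Jam3 lie on both sides.

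Levels were compared between genes in TPM (deposited transcripts per 1e6), which accounts for length. In WT testes Cldn11 was the most abundant member at 90.7 ± 9.28 TPM, followed by Cldn3 at 68.3 ± 6.29 TPM (SD, n = 3 each), and their ranges did not overlap. Gja1 (26.3 TPM), Jam3 (25.8 TPM) and Cdh2 (24.9 TPM) came next and could not be ordered, since neighbours overlapped. Tjp1 followed at 19.2 ± 0.197 TPM, F11r at 14.1 ± 2.40, Cldn5 at 8.41 ± 0.601 and Ocln at 2.83 ± 0.355 TPM, each apart from the next. The order in DKO testes was the same at the top (Cldn11 71.7 ± 5.23 and Cldn3 54.8 ± 5.39 TPM), with Cdh2, Jam3 and Gja1 again overlapping at 27.2, 25.2 and 25.2 TPM. Tjp1 (22.7 ± 1.45 TPM) kept its sixth place.

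The balance between scaffold and claudin transcripts differed accordingly, a ratio chosen after the values were seen and therefore given with no test. For each Cldn11 transcript there were 0.337, 0.308 and 0.304 Tjp1 transcripts in DKO libraries and 0.224, 0.192 and 0.224 in WT libraries, by TPM. The ratio of Cldn11 to Cldn3 was 1.41, 1.14 and 1.39 in DKO and 1.13, 1.58 and 1.31 in WT libraries, so the groups overlapped. Cldn3 and Cldn11 together made up 48.3% to 52.2% of the summed TPM of the 9 members in DKO and 55.0% to 58.9% in WT libraries.

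Among the shortest and the longest members, direction moved with transcript length. The shortest, Cldn3 (1263 bases), Cldn5 (1416) and Cldn11 (1872), had negative log2 fold changes, and the longest, Ocln (3192), Cdh2 (4646) and Tjp1 (6890), had positive ones. Between them, Jam3 (1970 bases), F11r (2482) and Gja1 (3105) were at 0.013, -0.11 and 0.0010, not in order of length. Among all tested genes, split into 10 length classes of 1711 genes, the median log2 fold change ran from -0.15 in the shortest class to 0.076 in the longest. The median was -0.037 for the class of Cldn11 and 0.076 for that of Tjp1. Genes that pass the test lie away from 0 by selection, so their distance from a class median cannot decide the part of length. With each library's smooth trend on length removed, Cldn11 was at -0.27 (edgeR adjusted p = 0.0427), Tjp1 at 0.24 (0.0435), Cldn3 at -0.23 (0.165) and Cdh2 at 0.16 (0.190). With an offset from the effective lengths, Cldn11 was at -0.29 (edgeR adjusted p = 0.0385) and Tjp1 at 0.28 (0.0361). With the mean fragment length of each library as a covariate, Cldn11 was at -0.14 and Tjp1 at 0.19 (adjusted p = 0.999 for both). In that fit 1 gene of 17110 was called. The covariate separates DKO from WT completely, so genotype and fragment length cannot be told apart.

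**Figure D3:**
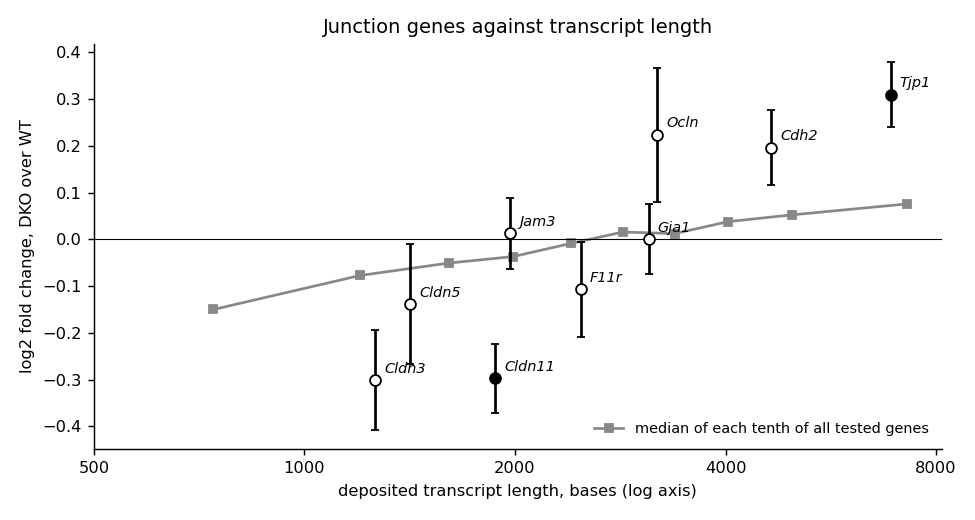
Log2 fold change, DKO over WT (y axis), against the deposited transcript length in bases (x axis, log scale) for the 9 junction genes (circles with 1 SE, filled where adjusted p was under 0.05). Grey squares are the medians of 10 equal classes of all tested genes, from -0.15 to 0.076. The filled genes, Cldn11 and Tjp1, lie away from 0 by selection, so their distance from the squares cannot decide the part of length.

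Because the barrier is a Sertoli cell structure, the members were set beside markers of that cell. Of 24 Sertoli markers, all tested, 8 were called lower and 0 higher (edgeR adjusted p under 0.05; 5.10% of all genes were called lower), with a median log2 fold change of -0.20. The called markers with the smallest p were Defb19, Cst12, Rhox8 and Dhh, at -0.97, -0.51, -0.42 and -0.42. These do not stand for the whole list: 19 of the 24 log2 fold changes were below 0 and 5 above, from -0.97 to 0.29. Defb19 (394 bases) and Cst12 (546 bases) belong to the shortest length class, where 20.3% of genes were called in either direction. With the effective-length offset Defb19 was at -0.60 and Cst12 at -0.31 (edgeR adjusted p = 0.0228 and 0.0415), and with the length trend removed at -0.67 and -0.31 (0.0193 and 0.0493), while Cst12 did not pass on the TPM scales (limma adjusted p = 0.0583 and 0.0538). With fragment length as covariate none of the 4 passed (edgeR adjusted p = 0.999 for each). The summed marker level was 1944 to 2267 CPM in DKO and 2212 to 2575 CPM in WT libraries, and no marker was at 0 in all libraries. Their mean log2 CPM was 4.58 to 4.70 in DKO and 4.79 to 4.95 in WT libraries, without overlap. These calls rest on single libraries too: without WT replicate 3 none of the 4 named markers passed (edgeR adjusted p from 0.0799 for Defb19 to 0.101 for Dhh), without DKO replicate 1 or WT replicate 2 Defb19 alone of the 4 did, and without DKO replicate 2 Rhox8 did not.

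Measured against the mean of the Sertoli markers in the same library, Cldn11 no longer separated the groups. Its log2 level relative to the markers was 1.69, 1.64 and 1.68 in DKO and 1.79, 1.76 and 1.66 in WT libraries, a difference of -0.068. Cldn3 likewise overlapped, with a difference of -0.074. Tjp1 lay farther apart, at 2.19, 2.004 and 2.02 in DKO and 1.67, 1.40 and 1.53 in WT libraries, a difference of 0.54. Cdh2, Jam3 and Gja1 were also higher relative to the markers in every DKO library (differences of 0.42, 0.24 and 0.23), whereas Cldn5, Ocln and F11r overlapped. These are descriptions with no test, and the markers' median transcript length was 1821 bases, close to that of Cldn11 and much below that of Tjp1. The marker mean itself was lower in DKO (mean log2 CPM 4.64 against 4.87 in WT), and this shift enters every difference given here. A gene whose level does not change therefore comes out higher in DKO on this measure. The share of all tested genes that separate the groups on this measure was not computed, so nothing is read from how many members did. Jam3 and Gja1 had log2 fold changes of 0.013 and 0.0010 in the edgeR fit. Whether a change in Sertoli content underlies the level of Cldn11 was not tested.

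**Figure D4:**
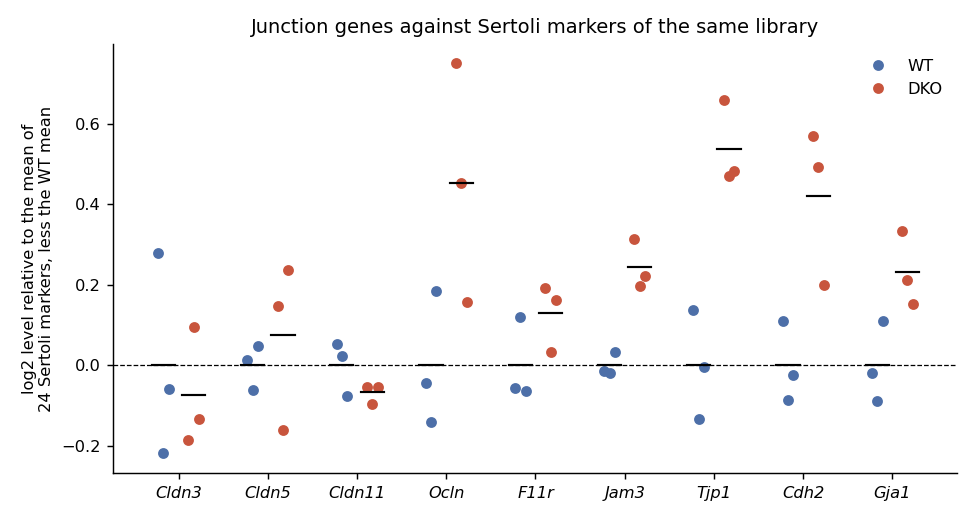
Log2 level of each junction gene relative to the mean log2 CPM of 24 Sertoli markers in the same library, less the WT mean of that quantity (y axis), for single libraries (points) with group means (lines). The DKO points of Cldn11 and Cldn3 overlap the WT points, and those of Tjp1 (mean 0.54 above WT), Cdh2, Jam3 and Gja1 lie above them. The marker mean was itself lower in DKO, which raises the DKO points of every gene on this axis.

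The other genes of the same junctions were read from the same fit. Of 100 tested genes for other tight junction, adherens junction, gap junction, desmosome and polarity proteins, 5 were called, 1 higher and 4 lower, where 10.8% of all tested genes were called. Their median log2 fold change was -0.0043. Among other tight junction genes, 1 of 25 was called: Tmem114, which encodes a claudin-related membrane protein (12.4 ± 1.14 against 16.04 ± 1.47 CPM in DKO and WT, SD, n = 3 each; log2 fold change -0.37; edgeR adjusted p = 0.0454). The median of that list was 0.027. A further 13 of its genes in the files, all claudins, had too few counts to be tested.

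Among 34 other adherens and ectoplasmic specialization genes, 2 were called, in opposite directions, with a list median of -0.042. That is 5.88% of the list, below the 10.8% of all tested genes. Espn encodes espin, which bundles the actin of the ectoplasmic specialization, the Sertoli cell's adhesive structure at the barrier and around spermatid heads. It had 63.8, 76.5 and 68.1 CPM in DKO and 89.4, 99.5 and 107 CPM in WT libraries. The groups did not overlap, and 17.5% of all tested genes were likewise lower in DKO without overlap. The difference of Espn on the log2 scale was -0.51 (SE 0.0897, edgeR adjusted p = 0.0237), larger in size than the estimate of any of the 9 members. Pvrl3 encodes nectin-3, the partner that spermatids present to Sertoli nectin-2. It had 482, 438 and 392 CPM in DKO and 378, 297 and 343 CPM in WT libraries (log2 fold change 0.37, SE 0.101; edgeR adjusted p = 0.0438).

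No gene was called by edgeR among 12 tested connexins and pannexins (3 at an unadjusted p under 0.05) or among 10 desmosome genes (0 at an unadjusted p under 0.05). Of all tested genes, 31.7% had an unadjusted p under 0.05. The most abundant of these were Gjc1 and Gja6 (connexins, log2 fold changes 0.20 and 0.26) and Dsg1a and Jup (a desmoglein and plakoglobin, 0.070 and -0.087). Of 19 polarity genes 2 were called, both lower: Scrib (358 ± 41.4 against 450 ± 10.5 CPM; log2 fold change -0.33, edgeR adjusted p = 0.0396) and Llgl1 (18.9 ± 2.31 against 23.9995 ± 1.23 CPM; -0.35, adjusted p = 0.0490; DKO against WT, SD, n = 3 each). The proteins of Scrib and Llgl1 act together in the Scribble module that sets the basolateral domain of epithelia. Of 25 tested genes for signals that build or open the barrier 3 were called: Rhox5, an androgen-responsive Sertoli homeobox gene that is also among the Sertoli markers, at -0.44 (edgeR adjusted p = 0.0307), and Tgfbr1 and Itch, a TGF-beta receptor and a ubiquitin ligase, at 0.31 and 0.30 (0.0461 and 0.0436). The calls made up 10.5% of the polarity genes and 12.0% of the signal genes, near the 10.8% of all tested genes.

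None of the 8 genes just named as called passed the test when DKO replicate 1, WT replicate 2 or WT replicate 3 was left out, and the largest edgeR adjusted p over the fits without 1 library ran from 0.0993 for Espn to 0.172 for Tgfbr1. Without DKO replicate 2 Espn and Scrib passed and the other 6 did not. With the effective-length offset the calls of Tmem114, Pvrl3, Itch and Tgfbr1 ended (edgeR adjusted p = 0.0524, 0.0635, 0.0521 and 0.0546). With the length trend removed those of Tmem114, Rhox5, Itch and Tgfbr1 ended (0.0650, 0.0609, 0.0583 and 0.0649). On both TPM scales Tmem114, Pvrl3, Llgl1, Itch and Tgfbr1 did not pass (limma adjusted p from 0.0590 to 0.147), and with fragment length as covariate none of the 8 did (edgeR adjusted p = 0.999 for each). Espn and Scrib passed under both length corrections and on both TPM scales.

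**Figure D5:**
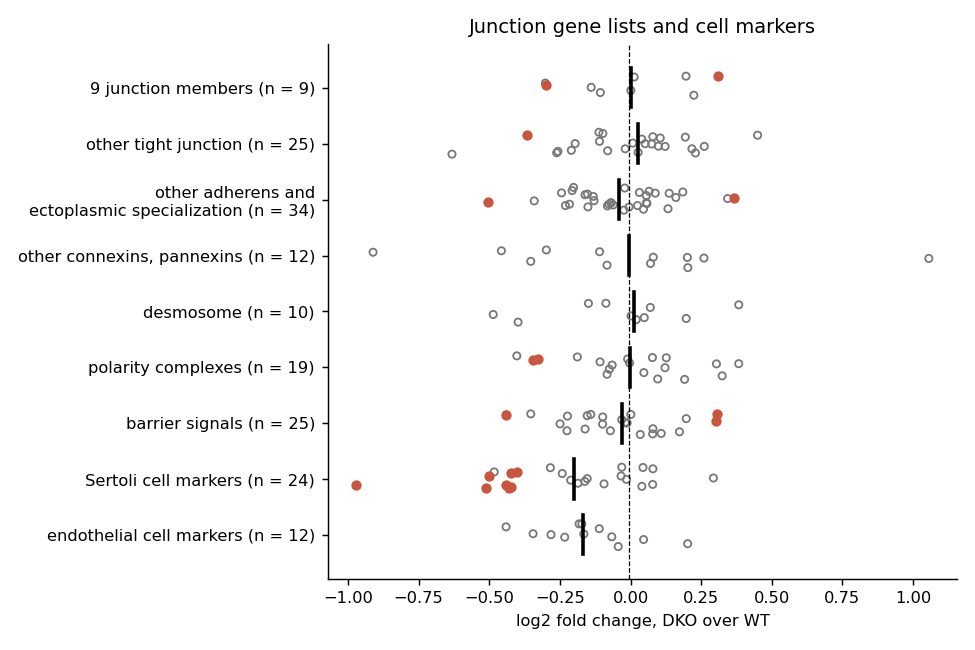
Log2 fold change, DKO over WT (x axis), of every tested gene in the 9 members, 6 lists of related genes and 2 lists of cell markers (y axis, n tested in brackets). Filled points had an adjusted p under 0.05, the heavy bar is the list median and the dashed line is the median of all tested genes (-0.0042). The Sertoli (-0.20) and endothelial (-0.17) medians lie left of that line, while the list medians of the members and related genes run from -0.042 to 0.027.

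Genes with the most similar profile over the 6 libraries were found for the 2 members that passed the test, by the root mean square difference of log2 CPM centred on each gene's own mean, among 10138 other genes whose average log2 CPM was 3 or more. For Cldn11 these were Mmp14, Mlf2 and Med21, at differences of 0.0281, 0.0288 and 0.0289. For Tjp1 they were Tmem194, Vsig1 and Hsf2bp, at 0.0172, 0.0192 and 0.0193. Among the other cell markers, 3 of 14 Leydig, 2 of 8 peritubular myoid and 0 of 10 macrophage markers were called, those 5 all lower, with medians of -0.42, -0.26 and -0.18. The germ cell lists had 0 of 14 (spermatogonia), 3 of 19 (spermatocyte, 2 higher) and 3 of 20 (spermatid, 1 higher) called, with medians of 0.010, 0.14 and 0.038, where 10.8% of all tested genes were called. The spermatocyte markers separated the groups: their summed level was 6262 to 6688 CPM in DKO and 5652 to 6104 CPM in WT libraries, and their mean log2 CPM was 6.48 to 6.67 against 6.30 to 6.44. Of the 19, 8 were higher in DKO without overlap (18.4% of all tested genes) and 10 had an unadjusted p under 0.05 (31.7% of all tested genes). Their part in the level of Tjp1 was not tested. The part of cell content in the level of Gja1 or the junctional adhesion molecules was not tested.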

How the data were processed

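RNA from 6 whole testes was sequenced, 3 labelled DKO and 3 labelled WT by genotype. Replicates were numbered in order of deposition and pair nothing. Per the file headers, the deposited files are RSEM gene-level output, 1 per library. The submitters' processing notes name STAR 2.7.0f, RSEM 1.2.31, DESeq2 1.12.3 and build mm10; strand handling is not given in the sources used here. The expected counts deposited by the authors were rounded (93.2% were whole). The TPM values deposited by the authors served comparisons between genes, and their FPKM values were not used. Lengths are the deposited abundance-weighted transcript lengths.

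Genes were filtered by filterByExpr and scaled by TMM in edgeR 4.0.16. DKO was compared with WT by the quasi-likelihood test, adjusted over 17110 genes and called under 0.05. The SE is the log2 fold change over the square root of F. CPM are TMM-scaled. With 3 libraries a group, edgeR p-values set the group difference against the spread between these libraries, with dispersion estimates that borrow across genes. Fragment length was read from length columns of genes over 3000 bases. Alternatives were DESeq2 1.42.0 and its size factors, 2 count filters, limma 3.58.1 (voom; log2(TPM + 1); log2(TPM + 0.1)), effective-length and length-trend offsets (mgcv 1.9.3), a fragment-length covariate, thinning and leaving out each library. Positions, promoters and exons came from RefSeq GRCm38.p6 and GENCODE M21. Members, lists and tests were chosen with earlier results of these data known. Genes named were the members, the targeted genes, up to 6 called genes a list (otherwise the 2 most abundant), up to 4 called genes a marker list (printed for Sertoli cells only) and the 3 nearest profiles of each called member; Wbscr25 was added for its overlap with Cldn3.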

Additional observations from a re-analysis of the deposited data

Results flagged for a closer look

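The length columns, which the edgeR fit does not use, held a difference between the groups: the mean fragment length was 293.9 bases in the libraries labelled DKO, above the 244.7 bases in those labelled WT (SD 21.4 and 13.8, n = 3 each; p = 0.1 by a two-sided exact permutation test, its lower bound here). Its part in the junction gene values was not tested beyond the fits with length offsets and with the covariate given above. Groups of 3 are too small for a test of outlying libraries.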

How the results depend on the processing

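No paired analysis was possible because the labels give the groups no shared replicate numbers. The 1856 called genes became 2864 with DESeq2, 735 on log2(TPM + 1), 947 on log2(TPM + 0.1) and 1 with fragment length as covariate (545 at an unadjusted p under 0.05), and ranged from 7 to 3029 over the fits without 1 library. Of the calls 53.0% were higher, against 38.0% and 39.1% on the TPM scales. The 2 called members became 0 on both TPM scales (3 at an unadjusted p under 0.05 in each) and 0 with the covariate (0 at an unadjusted p under 0.05), and ranged from 0 to 3 without 1 library. Over the 9 members and 17 alternatives, 117 of 153 values kept direction and side of the threshold, 13 lost the call, 2 gained it and 21 changed sign; the cause was not tested. On the TPM scales Cldn11 was at -0.33 and -0.34 (limma adjusted p = 0.0549 and 0.0518) and Tjp1 at 0.22 and 0.23 (0.0922 and 0.0898). With the covariate, signs changed for Cldn5 (0.023), Ocln (-0.18), F11r (0.12), Cdh2 (-0.0007), Gja1 (-0.019), Pvrl3 (-0.050), Dsg1a (-0.19) and Llgl1 (0.010). Jam3 turned to -0.028 and -0.029 on the TPM scales. Gja1, at 0.0010, turned to -0.0027 with DESeq2 size factors, -0.0078 with a mean count of at least 50, -0.0009 with DESeq2, -0.054 and -0.056 on the TPM scales, -0.014 with effective lengths and -0.012 with the length trend removed. Without 1 library Gja1 ranged from -0.063 to 0.058, Jam3 from -0.048 to 0.037 and Dsg1a from -0.031 to 0.17.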
